A study of Mus musculus with 115 samples.

Results

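NRF1, NFYA and NFYB are 3 of the 275 constructs of a study that read DNA accessibility at designed sequences placed in mouse embryonic stem cells of the line labelled 129S6/SvEvTac. They were taken by name from the 122 constructs called unphased in the labels, which were measured in 18 pools with 2 replicate libraries each, 36 libraries in all. In amplicon NOMe-seq a methyltransferase marks cytosines that follow a guanine wherever the DNA is open, and bisulfite sequencing reads the mark. Each value is the fraction of reads called methylated at 1 such cytosine outside a CG (a GCH site), given here as a percentage, so a higher percentage means more accessible DNA. NRF1 was measured in the unphased libraries as the construct NRF1 of unphased_pool5, and a second time in the 3 libraries of NRF1_pool, as the constructs unphased_NRF1 and non_nucleosomal_NRF1. NFYB was in unphased_pool5 and NFYA in unphased_pool16, each with 8 constructs. They were set against the median construct of their own pool in the same library and against the construct with no motif, which was alone in unphased_pool1. NFYB was also set against NFYB_r in its own pool, and NRF1 against NRF1_r, which was measured in NRF1_pool and not in the unphased pools. NFYA had no partner of the kind named _r, and what _r stands for is not defined in the labels. No treatment is named for any group. Nothing says that the replicate libraries came from separate cultures, so the p-values measure the spread between these libraries, which may be technical.

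NRF1 is a homodimeric activator that binds a palindromic GC-rich motif in promoters, often of genes for mitochondrial and basic cell functions, and its binding is known to be blocked by CpG methylation of the motif. NF-Y binds the CCAAT box of promoters as a trimer of NFYA, NFYB and NFYC. NFYB and NFYC carry histone-fold domains and form a dimer, and NFYA joins it and makes the contacts to the CCAAT bases. The constructs carry a motif under the factor's name, so NFYA and NFYB are 2 constructs and not separate measurements of 2 proteins.

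Library medians ran from 37.1 to 62.3% in the unphased pools and from 40 to 50% in NRF1_pool. Among the unphased values 4 of 4226 were missing. In NRF1_pool 6 of 249 were missing, and all its values had 1 decimal, which is a step of 10 percentage points. The files give fractions with no read counts, so the depth behind a value is unknown. Sites lie in 3 places along the unphased amplicon: before, inside and after a window of 28 bp, the stretch in which most site positions differ between the constructs. Sites outside the window are given by their position in the amplicon, and sites inside it are counted from 1 at its first base. Outside it, 14 sites were shared by at least 90% of the constructs, 9 before and 5 after. The flank is the sites within 40 bp of the window, which for every member were positions 101, 164 and 187.

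At the flank the NRF1 and NFYB constructs were slightly more open than most unphased constructs, and NFYA was nearer the middle. The constructs ranged from 27.5 to 87.5% with a median of 41.9%, and NRF1 ranked 23, NFYB 21 and NFYA 44 of 122. The gains over the pool median were 6.21 points or less in every library, and none of the 3 passed the test.

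The NRF1 flank read 48.5% in replicate 1 and 45.9% in replicate 2 (47.2% ± 1.84, SD, n = 2), against pool medians of 46.2% and 39.7%. NRF1 was above its pool median in both libraries, by 2.35 and 6.21 points, but the ranges of the 2 sets overlapped. On a log2 odds scale, on which all tests below were made, the difference was 0.25 ± 0.09 (SE), with a limma adjusted p of 0.195. Over all unphased constructs 7.5% passed the same test in either direction. With the 9 sites before the window NRF1 averaged 52.5% ± 0.0194, below the class median of 53.3%. With the 5 sites after it NRF1 averaged 39.0% ± 2.39, against a class median of 33.5%, and ranked 15 of 121. The median of its own pool was 52.0% before the window, below the class median, and 35.4% after it, above the class median. Against that pool median NRF1 was 0.517 points higher before the window and 3.59 points higher after it. At position 243, the last shared site, its differences from the pool were -0.474 and -4.37 points. The higher level of NRF1 therefore lay mostly on the side after the window, but not at its last site.

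The first site on that side is position 164. NRF1 was methylated at 47.3% and 41.9% there, against pool medians of 39.2% and 33.5%, a gain of 8.12 and 8.43 points. NRF1 ranked 12 of 121 constructs at this site, whose class median was 33.6%. The log2 difference was 0.49 ± 0.08 with a limma adjusted p of 0.0587, so it missed the threshold. Against the mean of the other constructs of the pool, in place of the median, the adjusted p was 0.0350, in a test that 11.1% of all construct sites passed. At position 101, the flank site before the window, NRF1 read 56.8% and 57.6%, against pool medians of 56.9% and 53.6%.

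Inside the window the NRF1 construct had 5 sites, at window positions 6, 11, 17, 21 and 25. Their means were 53.6, 50.4, 46.8, 47.8 and 43.9% in that order. These levels lay between the 57.2% at position 101 and the 44.6% at position 164, except the last, which was below the second of these by less than 1 point. At each position NRF1 was above the median of the unphased constructs that have a site there: 47.7% over 30 constructs at 6, 43.4% over 13 at 11, 44.8% over 10 at 17, 39.6% over 47 at 21 and 42.3% over 8 at 25. The window mean of NRF1 was 48.7% and 48.3% by replicate, against pool medians of 47.6% and 43.9%, with no overlap. The log2 difference was 0.16 ± 0.11 with a limma adjusted p of 0.327, in a test that 26.7% of constructs passed.

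The NFYB construct was close to NRF1 at the flank, with a wider spread between its libraries. Its flank read 50.9% and 44.4% (47.7% ± 4.63, SD, n = 2), against the same pool medians of 46.2% and 39.7%. Both libraries were above their own median, by 4.75 and 4.68 points, while replicate 2 of NFYB lay below the median of replicate 1. The log2 difference was 0.27 ± 0.04 with a limma adjusted p of 0.0838. With a flank of 60 bp the adjusted p was 0.0437, and with one of 25 bp, which leaves position 164 alone, it was 0.0463. NRF1 passed with the 25 bp flank as well, at 0.0428. These settings passed more constructs in all, 35 of 120 (29.2%) with 60 bp and 30 of 120 with 25 bp.

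NFYB read 46.7% and 39.7% at position 164, ranking 14 of 121, and was 7.46 and 6.24 points above its pool median. That was a log2 difference of 0.41 ± 0.08 with a limma adjusted p of 0.0822. Its 3 window sites, at 4, 23 and 28, averaged 54.3, 44.7 and 50.6%, each above the class median for its position of 44.8, 36.3 and 42.6%. The NFYB window mean was 51.9% and 47.9%, against pool medians of 47.6% and 43.9%, again with no overlap. That gave a log2 difference of 0.23 ± 0.10 and a limma adjusted p of 0.124. Set against the mean of the other constructs of the pool, the windows of NFYB and NRF1 both passed, at 0.00262 and 0.0146, as did 51.7% of all constructs.

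NFYB and NFYB_r were read in the same libraries, and NFYB was the more open of the pair. The NFYB flank of 50.9% and 44.4% stood against 39.8% and 38.9% for NFYB_r. The 2 constructs did not overlap, and NFYB was higher by 11.1 points in replicate 1 and 5.51 points in replicate 2. The log2 difference was 0.48 ± 0.26 with a limma adjusted p of 0.138, over 14 such pairs of which 21.4% passed. With the library as a block, which fits constructs that share one, the same difference had an SE of 0.19 and an adjusted p of 0.0464. The deviations of replicate 1 from the mean of both replicates correlated at -0.111 between NFYB and NFYB_r over the shared sites. With the block 8 of the 14 pairs passed, so a pass is common among these pairs. ESRRB and ESRRB_r, which are among them, were read in different pools and share no library.

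Site by site, a comparison chosen after the data were seen, NFYB was above NFYB_r at 13 of the 14 shared sites. Neighbouring sites share reads, so these are not separate observations. Of the 14 sites 1 passed, position 164. There NFYB read 46.7% and 39.7%, against 31.5% and 30.1% for NFYB_r, with no overlap. The log2 difference was 0.75 ± 0.26 and the limma adjusted p 0.0210, where 23.5% of all pair-by-site tests passed. The SE was the same at each of the 14 sites, so it reflects 1 spread shared over the tests and not that of this site alone. This test did not pair the libraries. Without replicate 1 the adjusted p was 0.258. NFYB_r was itself below its pool medians at 164, with differences of -7.76 and -3.35 points, so the gap between NFYB and NFYB_r was made on both sides of the median. At the 5 sites after the window NFYB read 41.7% and 36.3%, against 33.2% and 30.2% for NFYB_r, and ranked 14 of 121, against 74 for NFYB_r. In the window NFYB was 4.75 and 3.11 points above NFYB_r, a log2 difference of 0.22 ± 0.23 with a limma adjusted p of 0.442, where 42.9% of pairs passed.

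The NFYA construct, named for the subunit that contacts the CCAAT bases, was further above its pool median in the window than at the flank. Its flank read 44.4% and 44.2% (44.3% ± 0.151, SD, n = 2), against pool medians of 43.2% and 41.9%. The gain was 1.26 and 2.28 points, and NFYA did not overlap with the pool medians. On the log2 scale it was 0.10 ± 0.04 with a limma adjusted p of 0.225.

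The NFYA window mean was 47.3% and 46.6% (46.97% ± 0.458, SD, n = 2), against pool medians of 39.9% and 40.1%. NFYA was 7.38 and 6.54 points higher, with no overlap between the sets. The log2 difference of 0.41 ± 0.11 passed, with a limma adjusted p of 0.0217, as it did for 9.17% of constructs in the higher direction. The adjusted p was over the threshold without replicate 1, at 0.109, and without replicate 2, at 0.0755, with log2 differences of 0.38 and 0.43. Without the library as a block it was 0.0686 at the same difference of 0.41. With the window narrowed by 5 bp at each end it was 0.0552, although the log2 difference was then 0.86, and 5.36% of constructs passed. The 4 NFYA window sites, at 3, 11, 25 and 28, averaged 49.1, 50.8, 42.2 and 45.8%. The constructs of a pool have different window sites, and only 2 of the NFYA positions were present in another construct of unphased_pool16. At these 2, positions 11 and 28, NFYA was above the class medians of 43.4% and 42.6%. At window position 25 it was level with the class median of 42.3%. By window mean, RREB1 of the same pool read 46.9%, FOXH1 45.4% and JUNB 45.0%, all close to NFYA. HMBOX1 read 35.2%, MEF2D 32.6%, PKNOX1 30.6% and RFX2 20.6%. NFYA ranked 1 of 8 by window mean. The pool median falls between these 2 sets by construction, and how far the low constructs set the gain of NFYA was not tested. RFX2, the lowest in the window, had the highest flank of the pool, at 52.3%.

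Taken site by site over the shared positions, none of the 42 member sites passed against the pool median in limma, where 5.68% of all 1672 construct-by-site tests did. At an unadjusted p under 0.05 there were 4 of 42, beside 26.3% of all tests. These were NRF1 at 164 and NFYB at 101 and 164, all higher, and NFYA at 243, which was lower. The difference from the pool median was above 0 at 36 of the 42 member sites. Neighbouring sites share reads, and NRF1 and NFYB share libraries, so these sites are not separate observations. The share above 0 among all construct sites was not counted. Over the whole amplicon NRF1 averaged 47.9% ± 0.712, NFYA 48.1% ± 0.0744 and NFYB 48.4% ± 3.48, against a class median of 46.1%. The limma adjusted p against the pool median was 0.275 for NRF1, 0.511 for NFYA and 0.145 for NFYB, in a test that 11.7% of constructs passed.

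Set against the construct with no motif, the 3 members were higher in the window, and none passed at the flank. The no-motif construct had its own pool, so the motif and the pool cannot be told apart in these values. Its window read 42.4% and 41.7% and its flank 41.0% and 42.8%. The windows of all 3 members passed as higher: NRF1 by 6.28 and 6.57 points with a limma adjusted p of 0.0189, NFYA by 4.87 and 4.91 points with 0.0372, and NFYB by 9.46 and 6.12 points with 0.0244. So did 23.1% of all constructs, and 48.8% passed in either direction. All 3 calls were lost without either library of the no-motif construct, with adjusted p from 0.256 to 0.545. NRF1 also lost its call without its replicate 1, at 0.0560, NFYB without its replicate 1, at 0.0669, and with the narrowed window, at 0.0990, and NFYA without replicate 1 or 2, at 0.119 and 0.0873.

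The window sites themselves differ between these constructs. NFYB shared window positions 23 and 28 with the no-motif construct and averaged 44.7% and 50.6% there, against 40.2% and 37.8%. NFYA shared position 28 and averaged 45.8%, against the same 37.8%. NRF1 shared none. At the flank NRF1 was 7.49 and 3.13 points above the no-motif construct, with a limma adjusted p of 0.107, NFYA 3.38 and 1.41 points with 0.484, and NFYB 9.90 and 1.60 points with 0.0809. In that test 38.0% of constructs passed, and the SE was the same for the 3 members, 0.15, so it reflects a spread shared over constructs. Without replicate 2 of NFYB its adjusted p was 0.0243, and with the 25 bp flank all 3 passed, at 0.00809 for NRF1, 0.0344 for NFYA and 0.0194 for NFYB, as did 47.9% of all constructs. Before the window the order turned: NRF1 averaged 52.5% ± 0.0194, NFYA 55.4% ± 0.374 and NFYB 53.2% ± 3.49, all below the 58.1% ± 2.26 of the no-motif construct.

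In the order of flank levels the members sat among neighbours within 1 point. NRF1 at 47.2% lay between PAX6 at 47.5% and MAX::MYC at 47.1%, and NFYB at 47.7% between NR2C2 at 47.8% and PAX6. NFYA at 44.3% lay between MAFG at 44.4% and ATF4 at 44.2%. In the window NRF1 at 48.5% lay between MYBL1 at 48.6% and E2F3 at 47.8%, NFYB at 49.9% between ESRRB_r at 49.9% and E2F8 at 49.8%, and NFYA at 46.97% between TRP53_r at 47.3% and RREB1 at 46.9%.

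The profile of each construct was taken as its difference from the median of its own pool, in percentage points at each of the 14 shared sites, and compared with that of 118 constructs by the root mean square distance. A small distance therefore means a like departure from the pool and not a like level. E2F8, named for a repressive member of the E2F family of cell cycle regulators, was nearest to NRF1 at 1.31 points, followed by SP3 at 1.61 and NFYB at 1.74. The nearest to NFYB were the same 2, E2F8 at 1.48 and SP3 at 1.58, and then NRF1. SP3 is a zinc finger factor that binds GC boxes in promoters. The median distance was 4.60 points for NRF1 and 4.70 for NFYB, so the 2 lay close together, and they share libraries. NFYB_r, also in those libraries, was at rank 74 from NRF1 with 5.43 points, and at rank 76 from NFYB with 5.26 points. NFYA was nearest to XBP1, named for a regulator of the unfolded protein response, at 2.02 points, followed by CEBPG at 2.26 and TRP53_r at 2.32. The Pearson correlations of these 3 with NFYA over the 14 sites were 0.241, 0.650 and -0.0846. Those of E2F8 and SP3 with NRF1 were 0.872 and 0.831. NFYB was at rank 5 from NFYA with 2.50 points, although the 2 were read in different pools.

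NRF1, NFYA and NFYB were also read within a list of factors that bind promoter motifs, of which 28 had a construct tested against a pool median. Rose and fell here mean passing the limma test as higher or as lower. At the flank 2 of the 28 rose, ZFP143 and KLF5, and 1 fell, MYC, where 3.33% of all constructs rose and 4.17% fell. Constructs in neither group could still lie far from the pool median, as BANP at 29.7 points and TBP at -6.71 points did. The median difference was 2.92 points, beside 0 over all constructs, a value that follows from taking each difference from the pool's own median. In the window 6 of 28 rose, NFYA among them with E2F3, SP2, SP1, KLF5 and YY1, and 5 fell, ZFP143, RFX2, MYC, ATF1 and TBP, where 9.17% of all constructs rose and 17.5% fell. The median there was 0.833 points. NRF1 and NFYB, with windows 1.10 to 4.41 points above the pool median, were in neither group. Against the construct with no motif, 10 of 29 rose and 5 fell in the window, and 8 rose and 3 fell at the flank, with medians of 4.51 and 2.40 points beside 0.573 and 0.0892 over all constructs. Of all constructs, 23.1% rose and 25.6% fell in the window, and 14.9% rose and 23.1% fell at the flank.

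NRF1_pool gives NRF1 a second measure, in 3 libraries that also hold NRF1_r, each in a sequence called unphased and in one called non_nucleosomal. The unphased amplicon is numbered 48 bp apart from that of the unphased pools, and all 19 NRF1 sites matched after that shift. Which sequence lies between the sites was not compared.

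The unphased NRF1 construct read lower in NRF1_pool than in unphased_pool5. Over the 19 sites it averaged 38.9, 33.2 and 41.1% in the NRF1_pool libraries, against 48.4 and 47.4% in unphased_pool5. The 5 libraries did not overlap. The difference of -10.2 points had an exact two-sided permutation p of 0.2, the smallest that 3 against 2 libraries can give. It was -7.73 points before the window, -13.2 in it and -11.6 after it. NRF1 was lower in NRF1_pool at 18 of the 19 sites. The exception was position 8, at the start of the amplicon, with 56.7% ± 5.77 in NRF1_pool and 34.3% ± 0.804 in unphased_pool5. By limma, 47.4% of the 19 sites passed, 8 as lower and 1 as higher. Without replicate 2 of NRF1_pool, the library with the lowest mean, 14 sites passed. Whether the single decimal of NRF1_pool comes from rounding or truncation is not given: with the unphased_pool5 values rounded alike the difference was -10.4 points, and with truncation it was -5.70 points. NRF1 is therefore compared within NRF1_pool below.

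Within NRF1_pool, the unphased NRF1 construct was not above NRF1_r. At the 14 shared sites NRF1 averaged 39.3, 34.3 and 42.1%, against 46.4, 41.4 and 46.4% for NRF1_r. NRF1 was lower in each of the 3 libraries, with a mean difference of -6.19 ± 1.65 points (SD, n = 3). Before the window NRF1 averaged 44.8% and NRF1_r 52.6%, a difference of -7.78 ± 4.44 points, lower in 3 of 3 libraries. After the window NRF1 averaged 27.3% and NRF1_r 30.7%, with NRF1 higher in 1 of 3 libraries. At the flank both averaged 34.4%. In the window NRF1 averaged 35.3% over its 5 sites and NRF1_r 40% over its 2, a difference of -4.67 ± 6.43 points, with NRF1 higher in no library. With 3 libraries an exact sign-flip p cannot go below 0.25, which is what the mean over all shared sites gave.

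In the non_nucleosomal sequence NRF1 was above NRF1_r outside the window and below it inside. Over 20 shared sites outside the window NRF1 averaged 52.3% ± 1.26 and NRF1_r 49.0% ± 2.65, higher for NRF1 in 3 of 3 libraries by 3.33 ± 1.76 points. The gain lay mostly after the window, where NRF1 averaged 32.9% ± 1.43 over 7 sites and NRF1_r 24.8% ± 3.30, a difference of 8.10 ± 4.59 points. It did not reach the end of the amplicon: at positions 326 and 337 NRF1 averaged 30.0% and 33.3%, against 36.7% for NRF1_r at each. At the flank NRF1 averaged 58.9% ± 1.92 and NRF1_r 48.9% ± 3.85, a difference of 10 ± 5.77 points. Inside the window the sites differ between the constructs: NRF1 averaged 56.0% ± 5.29 over 5 sites and NRF1_r 66.7% ± 5.77 at 1 site. NRF1 was lower there in 3 of 3 libraries, with a mean difference of -10.7 ± 6.43 points. The exact sign-flip p was 0.25 for each of these region means. Before the window NRF1 averaged 85.6% ± 1.92 and NRF1_r 85.9% ± 3.21, a difference of -0.370 ± 1.28 points.

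That last comparison leaves out a stretch of low sites of the non_nucleosomal sequence, at positions 109 to 133, where NRF1 averaged 11.7% and NRF1_r 8.33%. NRF1 was higher at these low sites by 5.0, 2.5 and 2.5 points in the 3 libraries. The construct with no motif in the same kind of sequence was read in another pool. At the 6 sites after the window that all had, NRF1 averaged 32.8% ± 2.55 and NRF1_r 22.8% ± 3.47, against 30.1% ± 7.30 for the no-motif construct, and the median of 24 non_nuc constructs was 32.0%. The last 2 come from other libraries with more decimals, so these levels are only set side by side.

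Site by site, limma called 5.71% of the 35 NRF1 against NRF1_r tests, position 291 (243 in the numbering of the unphased pools) as lower in the unphased sequence and 292 as higher in the non_nucleosomal one. Both had the same difference in all 3 libraries at the 10-point step, which makes the estimated spread nearly 0, so the calls rest on the rounding and are not read further. With 1 spread over all sites 7 were called: 6 as higher in NRF1, all in the non_nucleosomal sequence at 129, 213, 236, 246, 259 and 292, and 1 as lower, in the unphased sequence at 70 (22 in the numbering of the unphased pools). At position 129 NRF1 read 10% in all 3 libraries, against 0, 0 and 10% for NRF1_r.

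The 2 sequences were then compared at 14 aligned sites outside the window. NRF1 minus NRF1_r was 1.43, 7.14 and 5.0 points in the non_nucleosomal sequence, against -7.14, -7.14 and -4.29 points in the unphased one. The 2 sets did not overlap, and the difference between them was 10.7 ± 3.11 points (SD, n = 3), with an exact sign-flip p of 0.25, the smallest possible. After the window it was 16.7 ± 5.03 points over 5 sites, and before the window 7.41 ± 5.59 points over 9 sites. Before the window NRF1 minus NRF1_r was -0.370 points in the non_nucleosomal sequence and -7.78 points in the unphased one. The non_nucleosomal constructs averaged 85.6% and 85.9% there, in values with a step of 10 points. Whether so high a level limits the difference was not tested. By limma 7.14% of the aligned sites passed, which is position 291 with its spread near 0. NRF1 had the same spacing of window sites in both sequences, while NRF1_r had sites at window positions 7 and 21 in the unphased sequence and at 14 in the non_nucleosomal one, so the NRF1_r inserts are not identical.

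The tables of CGH sites give methylation at cytosines of another context in the same NRF1_pool libraries. In the unphased sequence NRF1 averaged 32.7% ± 2.91 over 15 such sites and NRF1_r 40.4% ± 1.54, a difference of -7.78 points. In the non_nucleosomal sequence NRF1 averaged 18.1% ± 1.25 over 16 sites and NRF1_r 17.9% ± 2.01, a difference of 0.208 points.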

How the data were processed

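The authors deposited, for each cytosine of a construct, the fraction of reads that were called methylated, in files of GCH and of CGH sites that carry no counts. Phenol and chloroform extraction, bisulfite conversion, PCR and a NEBNext library kit are named per the labels' protocols, and Trimmomatic 0.32 per the submitters' processing notes. The aligner, caller and build are not given in the sources used here. Construct sequences were not used here.

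Region means per library were turned into log2((f + 0.01)/(1 − f + 0.01)) and compared with limma 3.58.1 in R 4.3.3, with the spread moderated over all constructs tested, adjusted by the Benjamini-Hochberg method over all of them and called at an adjusted p under 0.05. Differences from the pool median were taken within a library, and those from the no-motif construct between libraries. MAX::MYC held identical values in 2 pools and was counted once. The fit was checked on simulated data. Named constructs are the members, their references, the 2 neighbours in each order, the nearest 3 in profile and list members past the threshold. For the NFYA window the other constructs of its pool are named as well. Members, lists and tests were chosen with earlier results of these data known. Other steps used Python 3.11.15, numpy 2.4.6, pandas 2.3.3 and scipy 1.17.1.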

Additional observations from a re-analysis of the deposited data

Results flagged for a closer look

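NRF1 minus NRF1_r differed between the non_nucleosomal and the unphased sequence, in a comparison added after the planned tests. Every NRF1_pool library showed a positive difference in the first sequence and a negative one in the second. The gap was 10.7 points over the 14 aligned sites, with an exact sign-flip p of 0.25, the smallest possible with 3 libraries. At position 291 of the unphased amplicon, in the numbering of NRF1_pool, the same gap was 1.85 on the log2 scale with a limma adjusted p of 0.00146. The values at this site moved by the same 10-point steps in each library, which makes the estimated spread nearly 0. This call therefore rests on the rounding and is not read further.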

How the results depend on the processing

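Of 171 alternatives run for single members in the unphased pools, 141 kept the direction and the side of the threshold. A call was gained in 11 and lost in 19, and none reversed. Single sites entered only where their unadjusted limma p against the pool median was under 0.05. The comparisons with NRF1_pool were not among the 171, so the lack of reversals does not cover them or the other sites. The count of constructs called against the pool median was sensitive to the choice of centre: with the mean of the other constructs it was 41 for the amplicon, 47 for the flank, 62 for the window and 185 for single sites, in place of 14, 9, 32 and 95. With no replicate block these were 5, 17, 19 and 27. The amplicon count was 7 with shared sites only, the flank count 35 with 60 bp and 30 with 25 bp, and the window count 51 on untransformed fractions and 6 after narrowing. Against the no-motif construct the flank count was 46 and ranged from 5 to 48 with 1 library left out, and the window count was 59, ranging from 13 to 60. The lowest values were those without a no-motif library.

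The labels give replicate numbers but no shared batch, and there are only 2 per pool, so they do not pair libraries of different pools. The correlation of same-numbered deviations with the no-motif construct was 0.224 for NRF1, 0.327 for NFYB and 0.395 for NFYA. With the replicate block the window count was 27, and the 3 member calls had limma adjusted p of 0.0572 for NRF1, 0.0923 for NFYA and 0.0531 for NFYB. NFYB and NFYB_r share libraries, although their same-numbered deviations correlated at -0.111. The block took the flank count over pairs to 8 in place of 3.

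In NRF1_pool the count of NRF1 against NRF1_r sites was 2, was 5 with no replicate block, 7 with 1 spread over all sites, and 6 to 9 with 1 library left out. The difference between the sequences was called at 1 site, at 2 on untransformed fractions, at 5 with 1 spread, and at 2 to 4 with 1 library left out. The sites called between NRF1_pool and unphased_pool5 were 9, ranging from 7 to 14 with 1 library left out and being 6 with the unphased_pool5 values rounded or truncated, and the mean difference of -10.2 points was -5.70 with truncation. The cause of these changes was not tested. Leaving out a library across all constructs at once gave no fit, since no spread was left, and member libraries were left out alone, the lone library being assumed to vary like the others. Low anchor sites lie only in the non_nucleosomal sequence, so keeping them changed nothing in the unphased flank. Depth is unknown, and 2 libraries per pool limit the precision.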
